A study of Mus musculus with 5 samples.

Results

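The genes described here carry the noradrenaline signal in brown adipose tissue (BAT) from the cell surface to cAMP and its kinase. They are 9 genes chosen by name: the receptors Adrb3, Adrb1 and Adra1a, the G protein gene Gnas, the adenylyl cyclase Adcy3, the phosphodiesterase Pde3b, the protein kinase A (PKA) subunits Prkaca and Prkar2b, and the transcription factor Creb1. All 9 were among the 16450 genes tested of 52022 genes with a transcript in the tables. BAT RNA came from 3 ATF4 BKO mice and 2 WT mice, 1 library per mouse. Both genotypes carried floxed Atf4 alleles (ATF4 fl/fl) on a C57Bl/6J background, and ATF4 BKO mice also carried the Cre transgene Tg(Ucp1-cre)1Evdr. Since Cre is driven by the Ucp1 promoter, cells of BAT that do not use this promoter keep Atf4. WT mice were ATF4 fl/fl without Cre, so no mouse carrying Cre without the floxed allele entered the comparison. The mice were labelled male, were 10 to 12 weeks old, were kept at 30 °C and were then exposed to 4 °C for 3 days. No library from mice kept at 30 °C was analysed here, so the comparison is between genotypes in the cold and not between temperatures.

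Brown fat is densely supplied by sympathetic nerves, which release noradrenaline in the cold. Beta-adrenergic receptors pass this signal through the stimulatory G protein to adenylyl cyclase, which makes cAMP, while phosphodiesterases break cAMP down. When cAMP binds the regulatory subunits of PKA, the catalytic subunits become active and phosphorylate enzymes of lipolysis and the transcription factor CREB, and free fatty acids then activate UCP1. Alpha1-adrenergic receptors signal through another G protein, and beta3-adrenergic receptors are the form for which rodent brown and white adipocytes are best known.

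The libraries held 24698337 to 31558111 estimated counts in ATF4 BKO mice and 30996438 to 32452751 in WT mice. Atf4 had 32.6, 52.6 and 23.5 CPM (counts scaled to a common library size after TMM normalization) in ATF4 BKO replicates 1, 2 and 3 and 286 and 226 CPM in WT replicates 1 and 2. ATF4 BKO replicate 1 held 4598 counts of Xist, a gene of the inactive X chromosome, against at most 7 in the other libraries, and 34 counts of Y-linked genes against at least 3284, which goes against its label as male. WT replicate 2 stood apart through skeletal muscle RNA: 12 muscle markers summed to 2153 CPM there, 93.4 in WT replicate 1 and 3.23 to 28.4 in ATF4 BKO mice, and all 12 were lower in every ATF4 BKO mouse. The summed levels of 12 brown adipocyte markers overlapped between genotypes, and those of 5 endothelial markers (874 to 1156 CPM against 731 to 849) and of 6 mural cell markers (795 to 888 against 614 to 756) were higher in ATF4 BKO mice. Taken singly, 2 of 5 endothelial and 2 of 6 mural markers lay higher in every ATF4 BKO mouse, beside 8.95% of all genes, and the others overlapped. The mural sum was largely Rgs5, at 473 to 565 CPM in ATF4 BKO mice and 296 and 492 CPM in WT mice. Sample files carry either of 2 name prefixes of unknown meaning, shared by ATF4 BKO replicates 1 and 2 with WT replicate 1 and by ATF4 BKO replicate 3 with WT replicate 2. The share of counts from mitochondrially encoded genes was 18.5% to 21.96% in ATF4 BKO mice and 15.1% to 15.6% in WT mice. In bulk tissue, fewer cells of a type and less RNA per cell cannot be told apart.

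Differences between genotypes were tested with edgeR (quasi-likelihood) over the 16450 genes. None of the 9 genes passed the adjusted threshold of 0.05 (0 of 9, and 0 of 9 with DESeq2), where edgeR called 0.00608% of all genes tested and DESeq2 0.736%. The edgeR fit did not call the deleted gene Atf4 either (log2 fold change -2.82, edgeR adjusted p = 0.671), while DESeq2 did (adjusted p = 9.72e-12). The 0 of 9 from edgeR therefore does not show that the 9 genes were unchanged. One gene, Prkar2b, had an unadjusted p under 0.05 (1 of 9), beside 5.23% of all genes. It was also the 1 of 9 by that measure with DESeq2 (5.79% of all genes), with limma on log2(TPM + 1) (8.7%) and with limma on log2(TPM + 0.1) (8.67%), while without ATF4 BKO replicate 1, the library with Xist, there were 0 of 9 (4.87%). With the muscle marker level as a further term there were 0 of 9 (12.3%). Since all 12 muscle markers were lower in every ATF4 BKO mouse, values from that fit cannot fully separate muscle level from genotype. Without both ATF4 BKO replicate 1 and WT replicate 2, which leaves 1 WT mouse and was tried after the data were seen, there were 2 of 9 (9.55%), Adrb3 with a log2 fold change of 1.25 and Adrb1 with -0.80, and Prkar2b was not among them. The spread in that fit comes from 2 ATF4 BKO mice alone, and the lone WT mouse is assumed to vary like them. In CPM, Prkar2b alone of the 9 lay lower in all ATF4 BKO mice than in either WT mouse, an arrangement found in 10.6% of all genes. Adcy3 alone lay higher in every ATF4 BKO mouse in CPM, found in 8.95% of all genes. The other 7 genes overlapped between genotypes in CPM, while on the TPM scale Prkaca too was lower in every ATF4 BKO mouse and Adcy3 overlapped. The share of all genes so placed in TPM was not computed, and log2(TPM + 1) put the median of all genes at -0.12. The 9 log2 fold changes (ATF4 BKO over WT) ran from -0.35 for Prkar2b to 0.36 for Pde3b with a median of -0.02, against 0.01 for all genes tested.

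**Figure D1:**
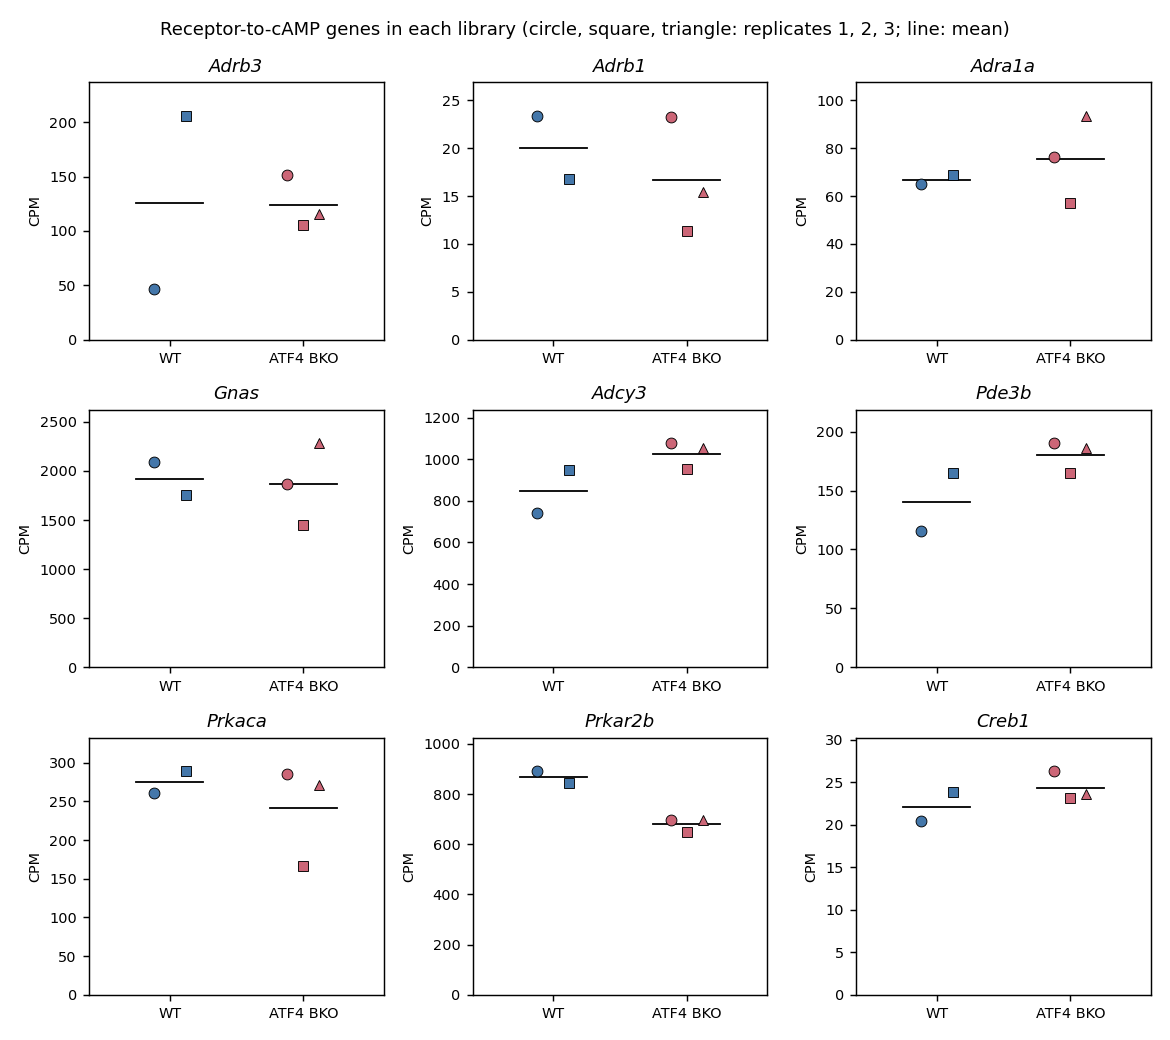
CPM of each of the 9 genes, 1 panel per gene with its own axis from 0, where each point is 1 mouse and each line the mean of its genotype. Prkar2b is the panel with both WT mice (844 and 891 CPM) above all ATF4 BKO mice (649 to 698 CPM), and Adrb3 is the panel in which the 2 WT mice lie farthest apart.

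Per transcript length, the pathway was far from evenly expressed. On the TPM scale (transcript abundance corrected for length), Gnas was highest with a mean of 3316 ± 494 (SD over all libraries, n = 5). Prkar2b with 348 ± 77.4 TPM and Adcy3 with 325 ± 33.3 TPM came next, and over all transcripts their order turned with genotype. Adcy3 was above Prkar2b in every ATF4 BKO mouse (321 to 339 TPM against 281 to 308) and below it in both WT mice (272 and 363 against 432 and 431). Prkaca followed at 142 ± 30.2 TPM and Adrb3 at 70.9 ± 36.3 TPM, whose ranges overlapped, and Adrb3 in turn overlapped Pde3b at 39.0 ± 6.62 TPM. Below them stood Adra1a at 22.6 ± 3.28 TPM, Adrb1 at 7.96 ± 2.34 TPM and Creb1 at 4.21 ± 0.64 TPM, each apart from its neighbours. The transcription factor at the end of the pathway was thus its least abundant mRNA among the 9. With protein-coding transcripts alone the order of the means was unchanged, but Gnas stood at 866 TPM, Pde3b overlapped Adra1a, and Adrb1 overlapped Creb1. Adcy3, at 205 to 271 TPM, then lay below Prkar2b in every library, so the turn of their order with genotype did not hold.

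Adrb3 (ENSMUSG00000031489.15, chromosome 8 from 27225776 to 27250616 in GRCm38, minus strand) encodes the beta3-adrenergic receptor. It had 151, 106 and 115 CPM in ATF4 BKO replicates 1, 2 and 3 and 46.5 and 206 CPM in WT replicates 1 and 2. All ATF4 BKO mice lay between the WT mice, which differed from each other 4.43-fold, while the ATF4 BKO mice spanned 1.43-fold. The log2 fold change was -0.02 (standard error, SE, 0.57), with a 95% interval from -1.41 to 1.36 and an edgeR adjusted p of 0.997, so a difference of up to 2.57-fold in one direction and down to 0.375-fold in the other is within the error. The value depended on which WT mouse was used. It was -0.72 without WT replicate 1 and 1.40 without WT replicate 2, both with an edgeR unadjusted p under 0.05, as had 2.33% and 12% of all genes in those fits, and neither passed adjustment. Each of these fits keeps 1 WT mouse, which is assumed to vary like the ATF4 BKO mice although the WT mice differed more, so these p-values do not show a difference in either direction. Within the first name prefix the log2 difference of means was 1.44, and within the second it was -0.84. Of the 31-base words (k-mers) of its transcripts, 22% also occur in other genes, chiefly Gm45470, so part of its reads may be divided between genes. The protein-coding transcript Adrb3-201 held the largest share of its TPM in every library, with 51.8% to 58.1%.

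Zfp985 and C5ar2 were among the 3 genes that came closest to the Adrb3 pattern, measured as the root mean square difference of mean-centred log2 CPM over the 5 libraries, in which Adrb3 itself varied by 0.72. The difference was 0.14 for Zfp985 and 0.18 for C5ar2, a complement receptor gene. Like Adrb3, both had their lowest level in WT replicate 1 and their highest in WT replicate 2, a likeness for which they were chosen. C5ar2, for example, stood at -0.27 on the log2 CPM scale in WT replicate 1 and 1.45 in WT replicate 2, against 0.89 to 1.10 in ATF4 BKO mice.

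Adrb1 (ENSMUSG00000035283.5, chromosome 19 from 56722199 to 56733113), the beta1-adrenergic receptor, had 23.3, 11.4 and 15.4 CPM in ATF4 BKO mice and 23.4 and 16.8 CPM in WT mice. Its highest ATF4 BKO value was level with the higher WT value, and the other ATF4 BKO mice lay below both WT mice. A log2 fold change of -0.27 (SE 0.32, 95% interval -1.06 to 0.52, edgeR adjusted p = 0.945) became 0.01 without WT replicate 1. It became -0.58 without ATF4 BKO replicate 1, the library with Xist, which held the highest ATF4 BKO value.

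Adra1a (ENSMUSG00000045875.13, chromosome 14 from 66635251 to 66771168) encodes the alpha1A-adrenergic receptor, which couples to phospholipase C rather than to cyclase. Levels were 76.3, 57.0 and 93.5 CPM in ATF4 BKO mice, and the WT values of 64.9 and 68.7 CPM fell inside that range. Its log2 fold change was 0.18 (SE 0.22, 95% interval -0.35 to 0.71, edgeR adjusted p = 0.945), and the sign turned on the TPM scale (-0.04).

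Adrb3 made up most of the adrenergic receptor TPM in 4 of 5 libraries, with 67.8%, 66.9% and 58.0% in ATF4 BKO mice against 39.8% and 76.6% in WT mice. Adra1a gave 14.6% to 32.3% and Adrb1 5.15% to 16.4%, and both were largest in WT replicate 1, where Adrb3 was lowest. For each of these shares the genotypes overlapped, and the exact two-sided permutation test gave p = 0.8. Of the 9 adrenergic receptor genes, 7 could be tested, 5 with positive and 2 with negative log2 fold changes (median 0.18) and 0 at an unadjusted p under 0.05. Adra1d, an alpha1-adrenergic receptor, had a log2 fold change of 0.43 (SE 0.43). Adra1b and Adra2a were too low to test, with at most 6 counts in any library.

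**Figure D2:**
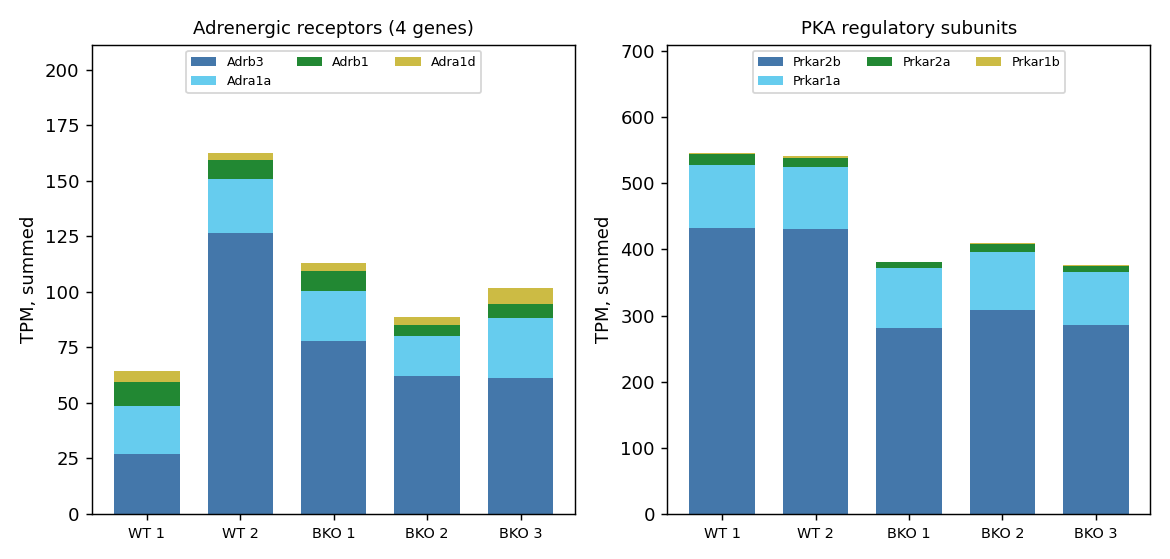
Stacked bars of summed TPM per library for 4 adrenergic receptors (left) and the PKA regulatory subunits (right), where each colour is 1 gene and each bar 1 mouse. On the left the Adrb3 segment runs from 26.8 TPM in WT replicate 1 to 127 TPM in WT replicate 2, and on the right the Prkar2b segment is at 431 to 432 TPM in WT mice and at most 308 TPM in ATF4 BKO mice.

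Gnas (ENSMUSG00000027523.19, chromosome 2 from 174284320 to 174346744) encodes the stimulatory alpha subunit that links beta-adrenergic receptors to cyclase. It had 1872, 1448 and 2280 CPM in ATF4 BKO mice and 2092 and 1754 CPM in WT mice. The ATF4 BKO mice enclosed both WT mice, and the log2 fold change was -0.04 (SE 0.24, 95% interval -0.62 to 0.54, edgeR adjusted p = 0.986). Of the TPM of Gnas, 40.9% to 46.5% in each library was placed on Gnas-216, a retained-intron transcript of 480 bases, and 26.4% to 29.0% on Gnas-218, a non-coding transcript of 607 bases. By counts Gnas-216 held 16.9% to 20.3%, so the high TPM of the gene rests in large part on short transcripts. The locus is imprinted and overlaps other genes, and 19.9% of its k-mers also occur elsewhere, mainly in Gm20721 and Nespas. Of 8 G protein alpha subunit genes, all were tested, 3 had positive and 5 negative log2 fold changes (median -0.03), and 0 had an unadjusted p under 0.05. The inhibitory subunit Gnai2, the most abundant of the others at 89.2 to 132 TPM, had a log2 fold change of 0.15 (SE 0.18).

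Downstream of the receptors, regulators of desensitisation were also measured. Of 8 genes for receptor kinases, arrestins and Rgs2, 7 had positive log2 fold changes (median 0.15) and 0 had an unadjusted p under 0.05. Rgs2, which shortens G protein signalling, gave 40.9, 41.2 and 76.1 TPM in ATF4 BKO mice and 14.2 and 52.5 TPM in WT mice, so WT replicate 2 lay among the ATF4 BKO mice. The log2 fold change of Rgs2 was 0.82 (SE 0.54). Grk2, the main kinase acting on beta-adrenergic receptors, had a log2 fold change of 0.07 (SE 0.12).

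Adcy3 (ENSMUSG00000020654.15, chromosome 12 from 4133103 to 4213525) was the leading adenylyl cyclase, with 77.4% to 80.2% of the cyclase TPM in every library. Its levels of 1076, 954 and 1053 CPM in ATF4 BKO mice were above the 744 and 947 CPM of WT mice. The gap between the lowest ATF4 BKO mouse and WT replicate 2 was small beside the distance between the WT mice. This gave a log2 fold change of 0.28 (SE 0.17, 95% interval -0.14 to 0.71, edgeR adjusted p = 0.920). On the TPM scale WT replicate 2 was the highest library at 363 TPM, above the ATF4 BKO values of 321 to 339, so the genotypes overlapped there. Of its k-mers, 20.1% also occur in other genes, chiefly its neighbour Cenpo. The share of Adcy3 within the cyclases did not separate the genotypes (exact two-sided permutation test, p = 0.8).

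Of 10 cyclase genes, 9 were tested, 8 of them with positive log2 fold changes (median 0.28) and 0 at an unadjusted p under 0.05. Adcy4 was closest, with a log2 fold change of 0.40 (SE 0.17, edgeR unadjusted p = 0.0513). Adcy6, the next most abundant cyclase after Adcy3, stood at 49.7 to 68.7 TPM with a log2 fold change of 0.26 (SE 0.19). The summed endothelial and mural cell markers, given above, were higher in the same mice, although most of these markers overlapped singly. Their part in the cyclase values was not tested.

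Pde3b (ENSMUSG00000030671.9, chromosome 7 from 114415281 to 114539251) encodes the phosphodiesterase through which insulin lowers cAMP in adipocytes. It had 190, 165 and 186 CPM in ATF4 BKO mice and 116 and 165 CPM in WT mice. The lowest ATF4 BKO mouse (164.6 CPM) fell just below WT replicate 2 (165.1 CPM), so the groups overlapped by a single close pair. A log2 fold change of 0.36 (SE 0.19, 95% interval -0.10 to 0.82, edgeR adjusted p = 0.911) was the highest of the 9, and it was 0.14 without WT replicate 1 and 0.63 without WT replicate 2. Within the 16 phosphodiesterase genes that act on cAMP, Pde3b gave 16.0% to 20.8% of the TPM, with no order between genotypes (exact two-sided permutation test, p = 1). All 16 were tested, 13 with positive and 3 with negative log2 fold changes (median 0.19), and 0 had an unadjusted p under 0.05. Pde4d had 34.4, 50.7 and 34.4 TPM in ATF4 BKO mice and 23.2 and 41.2 TPM in WT mice, with a log2 fold change of 0.50 (SE 0.25). Pde2a, a cGMP-stimulated enzyme, had a log2 fold change of 0.61 (SE 0.28), but 63.8% of its k-mers also occur in other genes, so its counts are uncertain.

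Prkaca (ENSMUSG00000005469.10, chromosome 8 from 83972993 to 83996443) encodes the main catalytic subunit of PKA. It had 285, 166 and 270 CPM in ATF4 BKO mice and 261 and 289 CPM in WT mice. ATF4 BKO replicate 2 alone lay below the others, which ranged from 261 to 289 CPM irrespective of genotype. The log2 fold change was -0.19 (SE 0.25, 95% interval -0.80 to 0.42, edgeR adjusted p = 0.948), and it was 0.03 without ATF4 BKO replicate 2. On the TPM scale the values were 142, 95.04 and 140 in ATF4 BKO mice against 155 and 178 in WT mice, so every ATF4 BKO mouse lay below both WT mice. The share of all genes so placed in TPM was not computed. For Prkaca limma on log2(TPM + 1) gave a difference of -0.42 that did not reach an unadjusted p of 0.05, with the median of all genes at -0.12. Of the TPM of Prkaca and Prkacb together, Prkaca gave 85.0% to 91.6%, and Prkacb itself had a log2 fold change of -0.01 (SE 0.13).

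Prkar2b (ENSMUSG00000002997.15, chromosome 12 from 31958476 to 32061296, minus strand) encodes RIIbeta, the PKA regulatory subunit abundant in fat and brain. It had 697, 649 and 698 CPM in ATF4 BKO mice and 891 and 844 CPM in WT mice. Every ATF4 BKO mouse lay below both WT mice, and the spread within each genotype (SD 28.1, n = 3, and 33.6, n = 2) was small beside the distance between their means of 681 and 868 CPM. The log2 fold change was -0.35 (SE 0.14), that is 0.785 times the WT level, with a 95% interval from -0.69 to -0.01 and an edgeR unadjusted p of 0.0462. It did not pass adjustment over all genes, with an adjusted p of 0.911 from edgeR and 0.472 from DESeq2. Within the first name prefix the log2 difference was -0.41, and within the second it was -0.27. The sign was negative under all 17 alternatives, from -0.57 to -0.29, with unadjusted p-values from 0.00245 to 0.28, and the unadjusted p was over 0.05 in each fit that left out a library. On the TPM scale the values were 281, 308 and 286 in ATF4 BKO mice against 432 and 431 in WT mice, a wider gap than in CPM on a scale that put the median of all genes at -0.12. Just 0.164% of its k-mers occur in other genes. Of 12 brown adipocyte markers, 0 were lower in every ATF4 BKO mouse in CPM, beside 10.6% of all genes, and 2 were higher in every one, beside 8.95%. The part of cell composition in the Prkar2b value was not tested.

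The 3 genes whose pattern over the 5 libraries came closest to Prkar2b, which itself varied by 0.18 on the log2 CPM scale, were the polarity gene Pard6a (root mean square difference 0.03), the mitochondrial ribosomal protein gene Mrpl41 (0.03) and Tcf20 (0.04). All 3 were lower in each ATF4 BKO mouse than in either WT mouse, a likeness for which they were chosen.

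Among the 4 PKA regulatory subunit genes, Prkar2b gave 73.5%, 75.2% and 76.0% of the TPM in ATF4 BKO mice against 79.2% and 79.7% in WT mice. The difference of means was -4.58 percentage points, with all ATF4 BKO mice below both WT mice, and the exact two-sided permutation test gave p = 0.2, the smallest that 5 libraries split 3 against 2 allow. Prkar1a, the next subunit, stood at 79.4 to 91.0 TPM in ATF4 BKO mice and 93.5 to 95.7 TPM in WT mice, with a log2 fold change from counts of 0.05 (SE 0.14). Prkar2a, which encodes RIIalpha, had 40.3, 43.8 and 41.1 CPM in ATF4 BKO mice and 61.0 and 46.9 CPM in WT mice, all ATF4 BKO mice below both WT mice. Its log2 fold change was -0.37 (SE 0.15, edgeR unadjusted p = 0.0492, adjusted p = 0.911), and it was -0.16 without WT replicate 1. Of the 9 genes for PKA subunits and inhibitors, 3 had an unadjusted p under 0.05, all lower in ATF4 BKO mice, beside 3.42% of all genes in that direction, while the median of the list was -0.01.

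The remaining gene of these 3 was Pkia, an inhibitor of the catalytic subunit that is abundant in muscle. It had 2.21, 2.17 and 1.99 CPM in ATF4 BKO mice, 3.20 CPM in WT replicate 1 and 11.3 CPM in WT replicate 2, the library with the muscle RNA. Its log2 fold change was -1.77 (SE 0.51, edgeR unadjusted p = 0.0132, adjusted p = 0.831). It was -0.61 without WT replicate 2, and 0.27 in all libraries with the muscle marker level as a further term. That last fit cannot fully separate muscle level from genotype.

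For Prkaca and Prkar2b, the window upstream of the first RefSeq start of each is printed because they are the kinase subunits compared above, and because CREB, the target of the kinase, binds the letters TGACGTCA (the cAMP response element, CRE). RefSeq promoter windows in GRCm38.p6 were at hand for 6 of the 9 genes. In each printed window, 250 bases 5′ to 3′ on the strand of the gene, capitals mark the CRE half-site TGACG on either strand, where CGTCA is the same half-site read from the opposite strand.
Prkaca (chr8:83972728-83972977, plus strand): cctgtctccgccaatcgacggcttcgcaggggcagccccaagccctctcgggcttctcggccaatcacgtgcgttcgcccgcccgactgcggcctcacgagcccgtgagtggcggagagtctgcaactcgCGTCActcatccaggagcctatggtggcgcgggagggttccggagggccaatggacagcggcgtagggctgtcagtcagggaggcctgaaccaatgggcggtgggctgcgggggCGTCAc
Prkar2b (chr12:32061278-32061527, minus strand): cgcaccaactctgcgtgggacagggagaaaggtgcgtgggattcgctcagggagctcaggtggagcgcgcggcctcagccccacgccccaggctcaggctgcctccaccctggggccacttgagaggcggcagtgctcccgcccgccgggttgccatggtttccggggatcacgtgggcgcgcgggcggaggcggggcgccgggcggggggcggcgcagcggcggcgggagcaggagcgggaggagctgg
The printed Prkaca window held 2 half-sites, beginning at -120 and -6 from the start, and no full CRE, and the window of its other RefSeq start, at 83976883, held neither. Neither Prkar2b window, the printed one or that of the start at 32060589, held a half-site or a full CRE, nor a match to TGATGNAA, the composite site that ATF4 binds with C/EBP factors. Half-sites were also in the window of Adrb1 (-90) and in windows of Gnas (-38 and -57 in overlapping windows, and -216). The Gnas window before the start at 174284320 and the windows of Adcy3 and Creb1 held no half-site. Over all 32851 RefSeq windows of this length, 17.8% held a half-site, 1.55% a full CRE and 3.45% the composite site. These are matches of letters and say nothing about binding in BAT.

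Creb1 (ENSMUSG00000025958.14, chromosome 1 from 64532645 to 64604548), the transcription factor that PKA phosphorylates, had 26.3, 23.1 and 23.6 CPM in ATF4 BKO mice and 20.5 and 23.8 CPM in WT mice. WT replicate 2 lay among the ATF4 BKO mice. Its log2 fold change was 0.14 (SE 0.14, 95% interval -0.22 to 0.49, edgeR adjusted p = 0.942), and on the TPM scale it was -0.08. Phosphorylation, on which CREB activity depends, is not measured by mRNA. Of 8 genes of the CREB family and its coactivators, 5 had positive and 3 negative log2 fold changes (median 0.02), all between -0.07 and 0.17, and 0 had an unadjusted p under 0.05.

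**Figure D3:**
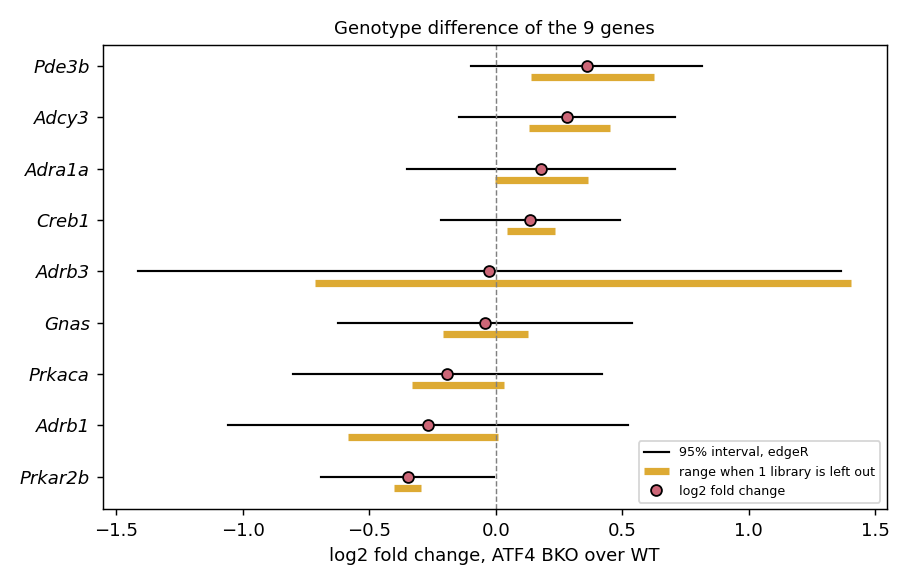
Log2 fold change (ATF4 BKO over WT) of the 9 genes on the x axis, with circles for the edgeR estimate, thin lines for its 95% interval and thick bars for the range when each library was left out in turn. Prkar2b is the gene whose interval (-0.69 to -0.01) ends short of 0, and Adrb3 has the widest range, from -0.72 to 1.40.

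Genes that cAMP signalling is known to induce were compared at the mRNA level. Neither cAMP nor PKA activity was measured, so a difference in cAMP signalling was not tested. All 9 of these cAMP-induced genes were tested and all 9 had positive log2 fold changes, as had 8425 of all 16450 genes tested. Their median was 0.51 against 0.01 over all genes. In CPM, 4 of the 9 lay higher in all ATF4 BKO mice than in either WT mouse, beside 8.95% of all genes. The others overlapped between genotypes. Within the second name prefix (ATF4 BKO replicate 3 against WT replicate 2) the log2 difference was negative for Nr4a1 (-0.21), Sik1 (-0.34) and Ppargc1a (-0.85). Within the first it was negative for Per1 (-0.05), and the other differences within a prefix were positive. An unadjusted p under 0.05 was reached by 3 of the 9, beside 1.81% of all genes in that direction, and 0 passed adjustment. Fos, an immediate early gene, had 13.2, 13.6 and 19.2 CPM in ATF4 BKO mice and 3.51 and 9.35 CPM in WT mice. The difference on the log2 scale was 1.25 (SE 0.44, edgeR unadjusted p = 0.0287, adjusted p = 0.911), and it was 0.73 without WT replicate 1 and 2.11 without WT replicate 2. The nuclear receptor gene Nr4a2 had 30.4, 15.6 and 23.8 CPM in ATF4 BKO mice and 13.8 and 12.8 CPM in WT mice, with a log2 fold change of 0.80 (SE 0.29). Nr4a3, of the same family, was low throughout with 2.65, 5.59 and 3.60 CPM against 1.77 and 1.98 CPM and a log2 fold change of 1.07 (SE 0.38). Leaving out both ATF4 BKO replicate 1 and WT replicate 2 was a choice made after seeing the data. The values were then 2.23 for Fos, 0.51 for Nr4a2 and 1.37 for Nr4a3. In a separate fit of all libraries with the muscle marker level as a further term they were 2.42, 0.26 and 1.70. That separate fit cannot fully separate muscle level from genotype. Pck1, whose enzyme supplies glycerol for triglyceride synthesis in fat, was by far the most abundant, with 1792, 1599 and 1916 TPM in ATF4 BKO mice and 1272 and 1678 TPM in WT mice. On counts its log2 fold change was 0.45 (SE 0.22), with all ATF4 BKO mice above both WT mice, which did not hold on the TPM scale. Dio2, the deiodinase that makes active thyroid hormone in BAT, had a log2 fold change of 0.54 (SE 0.32), and Ppargc1a, the coactivator of mitochondrial genes, one of 0.35 (SE 0.57). Ppargc1a had 67.6, 181 and 61.4 CPM in ATF4 BKO mice and 51.4 and 111 CPM in WT mice, so its positive value rested on ATF4 BKO replicate 2.

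On the supply side, transcripts of noradrenaline synthesis belong to nerve cell bodies outside BAT, and Dbh was at 0 counts in every library and Th at 0 in all except WT replicate 2 with 3 counts. Maoa, an enzyme that degrades noradrenaline, had 12.4, 14.9 and 14.0 CPM in ATF4 BKO mice, 71.1 CPM in WT replicate 1 and 16.7 CPM in WT replicate 2. A log2 fold change of -1.67 (SE 0.54, edgeR unadjusted p = 0.0213, adjusted p = 0.911) was -0.27 without WT replicate 1.

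**Figure D4:**
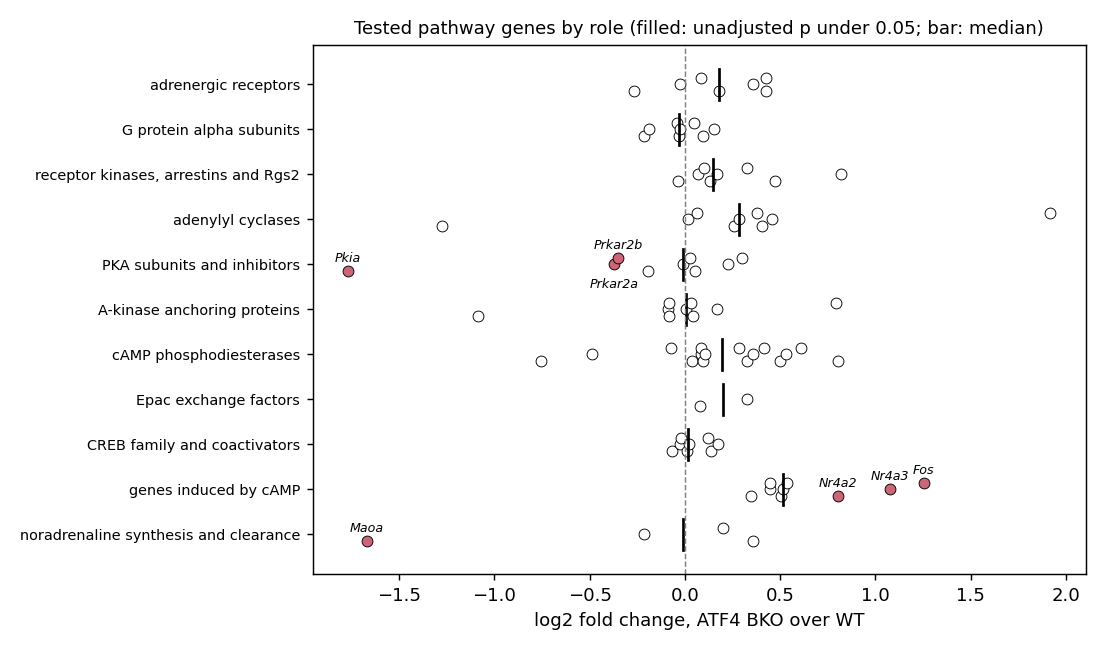
Log2 fold change (ATF4 BKO over WT, from edgeR) of the 89 tested pathway genes, 1 row per role, where each circle is a gene, filled circles have an unadjusted p under 0.05 and black bars mark the median of each role. The bar of the cAMP-induced genes stands at 0.51 with all 9 circles right of 0, while the bar of the PKA genes stands at -0.01.

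Over all 95 pathway genes on the lists, 89 were tested, 63 with positive and 26 with negative log2 fold changes, and the median was 0.10 against 0.01 over all genes. At an unadjusted p under 0.05 were 7 of 89 by edgeR, beside 5.23% of all genes, 4 lower (Prkar2b, Prkar2a, Pkia and Maoa, beside 3.42%) and 3 higher (Fos, Nr4a2 and Nr4a3, beside 1.81%), and 0 passed adjustment with edgeR or DESeq2. Of the 2 Epac genes, which encode the exchange factors that respond to cAMP without PKA, Rapgef3 had a log2 fold change of 0.32 (SE 0.16) and lay higher in each ATF4 BKO mouse in CPM, and Rapgef4 one of 0.08 (SE 0.22). The 9 anchoring proteins that place PKA in the cell had a median of 0.01, with 5 positive and 4 negative. Akap1, the mitochondrial anchor and the most abundant of them at 94.4 to 127 TPM, had a log2 fold change of -0.08 (SE 0.14). Another scaling moved the median of all genes to -0.10 with library totals alone and to -0.12 with log2(TPM + 1), so small positive values in these lists are relative to TMM scaling.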

How the data were processed

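BAT RNA of 3 ATF4 BKO and 2 WT mice had been sequenced from stranded mRNA libraries. For each mouse the authors deposited estimated counts per transcript made with Kallisto 0.45.0 (submitters' processing notes), not normalized between mice. The TPM in the same tables were derived by the authors' counter from these counts and effective lengths. The transcript annotation and any strand setting are not given in the sources used here, and the aligner-based workflow was not analysed here.

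Transcripts were matched by identifier without version to GENCODE M21 (GRCm38): 138191 of 141450 matched, and the others held 1.16% to 1.29% of the counts. The expected counts of a gene were added up and then rounded to whole numbers. Genes reaching 10 counts in 2 or more mice entered edgeR 4.0.16 in R 4.3.3 (TMM, quasi-likelihood test, genotype as the only term, Benjamini-Hochberg over all genes, threshold 0.05). The common dispersion was 0.0758, with 3 residual and 3.06 prior degrees of freedom. Totals ranged from 24698337 to 32452751 counts. Libraries are numbered as separate samples of a genotype and were taken as separate mice, and the p-values measure the spread between them. The scripts were tested on simulated counts.

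DESeq2 1.42.0, limma 3.58.1 on log2(TPM + 1) and log2(TPM + 0.1), other scalings and filters, blocks, a muscle marker covariate and leaving out each library were alternatives. Shares within families used TPM and an exact permutation test (10 splits, smallest two-sided p 0.2). Shared sequence was checked as 31-base k-mers on either strand.

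The 9 genes, the lists and the tests were chosen with earlier results of these data known. Named were the 9 genes, Atf4, list members at an unadjusted p under 0.05, up to 4 others per list with the highest mean TPM, and the 3 genes most like Adrb3 and like any of the 9 at an unadjusted p under 0.05. Some genes that this rule names are not reported here. Adra1b, Adra2a, Th and Dbh were named after their values were seen.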

Additional observations from a re-analysis of the deposited data

How the results depend on the processing

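The 9 genes gave 0 calls under all 17 alternatives, and Prkar2b, Adcy3 and Pde3b kept their sign under each of them. Genes called over the whole table numbered 1 with edgeR, 121 with DESeq2, 8 with no count filter, 2 with limma on log2(TPM + 0.1), 0 with limma on log2(TPM + 1), 0 with the name prefix as a block, 213 with the muscle covariate, and 0 to 23 when each library was left out, 23 without WT replicate 1. Of the 9, the number at an unadjusted p under 0.05 (1) became 0 with DESeq2's size factors, the prefix block, no filter and the muscle covariate, and 0 to 2 when each library was left out, 2 without WT replicate 2. Of the pathway genes, 7 became 13 with the muscle covariate (12.3% of all genes) and 3 to 14 when each library was left out, 3 without ATF4 BKO replicate 3 or WT replicate 1 (2.33% of all genes) and 14 without WT replicate 2 (12%). Alternatives chosen after seeing the data were protein-coding transcripts alone, with 0 of the 9 at an unadjusted p under 0.05, and leaving out both ATF4 BKO replicate 1 and WT replicate 2, with 2 of the 9 and 19 pathway genes.

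The replicate number as a replicate block left 0 genes called and 0 of the 9 at an unadjusted p under 0.05. Deviations from the group means correlated at 0.0473 for the libraries numbered 1 and 0.2 for those numbered 2, so the pairing is by number alone. Under the block the log2 fold change was 0.37 for Adrb3 and -0.018 for Adra1a.

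The sign of Adrb3 (-0.02) turned with the prefix block (0.43), log2(TPM + 0.1) (0.19), log2(TPM + 1) (0.18), the muscle covariate (2.27) and without both doubted libraries (1.25). It was 0.10 without ATF4 BKO replicate 2, 0.03 without ATF4 BKO replicate 3 and between -0.72 and 1.40 over all fits that left out a library. That of Adra1a turned with log2(TPM + 0.1) and log2(TPM + 1) (-0.044 and -0.042), the muscle covariate (-0.16) and without ATF4 BKO replicate 3 (-0.0013, range to 0.36). That of Creb1 turned with log2(TPM + 0.1) (-0.10) and log2(TPM + 1) (-0.085). Leaving out a library gave Gnas -0.21 to 0.13 (0.11 without WT replicate 1), Prkaca -0.33 to 0.033 and Adrb1 -0.58 to 0.0102. Differences in family share, in percentage points, ranged over those fits from -12.4 to 24.4 for Adrb3, -9.99 to 1.24 for Adrb1, -10.8 to 6.94 for Adra1a, -0.035 to 1.39 for Adcy3, -2.91 to 0.29 for Prkaca and -2.14 to 1.27 for Pde3b. With protein-coding transcripts alone they were -0.068 for Adcy3 and 0.75 for Pde3b, and with CPM 0.36 for Pde3b. The causes were not tested. With 2 WT mice, their spread rests on 1 pair. Creb1 and Adrb1, at under 30 CPM, still had 596 to 807 and 320 to 739 counts per library.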

Other observations

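The ratio of summed TPM of the 4 PKA regulatory subunit genes to that of the 2 catalytic ones, computed after the values were seen, was 2.43, 3.67 and 2.47 in ATF4 BKO mice, against 3.17 and 2.79 in WT mice. ATF4 BKO replicate 2, with the lowest Prkaca level, had the highest ratio, and the genotypes overlapped. The regulatory sum alone was 382, 410 and 377 TPM in ATF4 BKO mice and 546 and 541 TPM in WT mice. The fit on log2(TPM + 1) put the median gene at -0.12, and the mitochondrial share of counts was higher in every ATF4 BKO library. Adra1a was divided over 4 main protein-coding transcripts, of which Adra1a-203 held 51.9% to 59.2% of the TPM over the 5 libraries.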
